A study of Mus musculus with 4 samples.

Results

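A set of 10 genes that cells switch on in response to type I interferon was followed through 4 single-cell RNA-seq libraries of mouse blood progenitors. The 10 genes, Ifit1, Ifit2, Ifit3, Isg15, Rsad2, Oasl2, Oas3, Usp18, Zbp1 and Ifi44, were picked by symbol from the 55357 features of the count tables, and all 10 were detected in every library. They had been chosen with their differences between libraries known, so their levels and fold changes in treated against control libraries are given as a description, with no p of a member. The cells were sorted LSK cells of the bone marrow, a fraction that lacks lineage markers, carries Sca-1 and Kit, and holds stem cells and multipotent progenitors. All mice were wild type; the treated ones received Yoda1, a small-molecule opener of the mechanosensitive channel Piezo1, into the peritoneum over 2 weeks, and the controls received vehicle. With 2 libraries a group, values given in a row below follow the order control 1, control 2, Yoda1 1, Yoda1 2. Age, sex and the number of mice behind a library are not given in the labels, nor whether a library stands for its own mouse. Any p-value below therefore reflects only variation between libraries, and part of that variation may be technical. In tests with library as a block, it is the variation of the difference between sets of cells, not of the level of a library.

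Type I interferons bind the receptor formed by Ifnar1 and Ifnar2, whose kinases Jak1 and Tyk2 activate a complex of transcription factors that includes Stat2 and Irf9. This complex binds the interferon-stimulated response element in the promoters of its target genes. Among the targets, the Ifit proteins recognise foreign RNA, Isg15 is a ubiquitin-like protein attached to other proteins, and Usp18 removes Isg15 and also dampens signalling at the receptor. Rsad2, or viperin, makes a chain-terminating nucleotide. Oas3 makes an oligoadenylate that activates an RNA-degrading enzyme, Oasl2 belongs to the same family, Zbp1 senses Z-form nucleic acid and can start cell death, and Ifi44 is an interferon-induced gene whose product is less well understood. In bone marrow, interferon is known to reach stem cells, and stem cells are known to keep a set of such genes on at rest.

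The genes lay on 7 chromosomes, with the 3 Ifit genes in 1 stretch of chromosome 19. In GRCm38 with GENCODE M21, Ifit2 ran from 34550694 to 34576419, Ifit3 from 34583531 to 34588731 and Ifit1 from 34640871 to 34650009 on the plus strand of chromosome 19. Isg15 spanned 156199424 to 156200818 of chromosome 4, Rsad2 26442746 to 26456452 of chromosome 12, Zbp1 173206612 to 173218923 of chromosome 2 and Ifi44 151730922 to 151749960 of chromosome 3, each on the minus strand. On chromosome 5, Oasl2 (114896936 to 114912234, plus strand) and Oas3 (120753098 to 120777661, minus strand) lay in separate places. Usp18 (121245906 to 121270917 of chromosome 6, plus strand) overlapped a gene on the opposite strand, Gm44148. Whether the counts keep the reads of both apart was not tested. Of the 50-base stretches of the Ifit3 transcripts, 51.24% also occurred in Ifit3b, so reads within them cannot be assigned to 1 copy by sequence. How far this altered the counts of Ifit3 was not tested. The matching share was 7.06% between Ifit1 and Ifit1bl2 and 3.96% between Isg15 and AC151275.1, and under 1% for the other members.

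RefSeq promoter windows of GRCm38.p6, from 250 bases before to 50 after the start, were found for 8 of the 10 genes (all but Usp18 and Zbp1). They were searched on both strands for the core of the interferon-stimulated response element, GAAANNGAAA, where matches may overlap each other. A match stood in 5 of the 8, against 3.443% of 32851 windows of the same length and 3.993% of 27025 genes with a window. The stretches that hold the matches are printed below on the strand of the gene, since they hold a sequence that 5 of the 8 carry and that the choice of members did not use. Capitals mark the matched letters, and a match on the opposite strand reads TTTCNNTTTC.

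Isg15, chr4:156200863-156200908, minus strand: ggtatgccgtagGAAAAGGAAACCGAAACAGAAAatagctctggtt
Oas3, chr5:120777713-120777746, minus strand: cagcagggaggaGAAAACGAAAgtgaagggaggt
Rsad2, chr12:26456551-26456584, minus strand: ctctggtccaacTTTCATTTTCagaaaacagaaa
Ifit3, chr19:34583361-34583428, plus strand: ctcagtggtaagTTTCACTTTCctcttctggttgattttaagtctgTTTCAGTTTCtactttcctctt
Ifit1, chr19:34640773-34640825, plus strand: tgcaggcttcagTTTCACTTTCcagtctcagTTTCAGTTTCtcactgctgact

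Isg15 held 3 overlapping matches, between 56 and 78 bases before its start. Ifit3 and Ifit1 held 2 each, and the nearest lay 112 and 75 bases before the start. The same 68 letters as in Ifit3 stood in the window of its near copy Ifit3b, at chr19:34607757-34607824. No match was found in the windows of Ifi44, Oasl2 and Ifit2. Of 20 other type I effector genes with a window, 9 held a match.

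After filtering, the libraries held 7620, 7822, 9122 and 9756 cells with 89058521 to 110493533 UMIs (unique molecular identifiers, each counting 1 captured RNA molecule) and a median of 7311 to 11220 UMIs per cell, lowest in Yoda1 2. Between 14 and 30 cell barcodes were shared by any pair of libraries. Kit, the stem cell factor receptor of the sort gate, stood at 98.4, 130, 105 and 156 CPM (UMI counts scaled to the library total), and Ly6a, which encodes Sca-1 and is itself induced by interferon, at 113, 97.9, 262 and 114 CPM. Markers of mature macrophages and neutrophils were present at a low level, 6 of 6 detected in each library, with a summed level of 218, 113, 59.5 and 75.3 CPM that was led by S100a8. Their part in the results was not tested.

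The members as a whole were highest in Yoda1 1 and lowest in Yoda1 2. Their summed level was 307, 229, 1052 and 193 CPM, so Yoda1 1 stood at 3.92 times and Yoda1 2 at 0.72 times the mean of the controls. The 2 treated libraries thus lay on opposite sides of the 2 controls, which they share as the reference. All 10 members were above both controls in Yoda1 1, where 18% of 18182 tested genes were. In Yoda1 2, 8 of 10 were below both controls, where 23.2% of genes were; the exceptions were Rsad2, between them, and Ifit3, above both in this library (as were 54.4% of genes) and so in both Yoda1 libraries (9.4% of genes). Scaled instead by TMM factors, which allow for a few abundant genes taking up the library, 10 and 9 members held these positions, against 26.9% and 36.6% of genes, with Ifit3 now between the controls.

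The Ifit family differed most and least among the members. Ifit3 was at 3.49, 4.53, 30.0 and 4.69 CPM, and the 425 UMIs of Yoda1 2 compared with 3318 in Yoda1 1. Ifit1 was at 23.0, 24.1, 86.8 and 20.3 CPM. For both, Yoda1 1 stood apart from the other 3 libraries, which lay close together. Ifit2 had the narrowest range, at 9.94, 10.2, 19.1 and 9.56 CPM, and was under 2-fold above the control mean in Yoda1 1. The other 9 members exceeded 2-fold there, as did 1.15% of all genes tested.

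Of the Isg15 pathway, Isg15 itself was at 87.1, 47.4, 357 and 40.3 CPM, with the 2 controls well apart from each other. Usp18, the protease that removes it, was at 29.0, 26.8, 66.2 and 12.7 CPM. In Yoda1 2, Usp18 was lower than in either control by more than the controls differed from each other.

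Among the nucleic acid sensors and enzymes, Oasl2 was at 55.1, 41.7, 152 and 39.2 CPM and Oas3 at 24.8, 15.3, 69.8 and 13.8 CPM. Zbp1, the Z-form nucleic acid sensor, was at 19.3, 13.5, 71.9 and 9.58 CPM. Rsad2 was at 20.2, 14.9, 70.3 and 15.1 CPM and Ifi44 at 35.1, 30.8, 129 and 27.8 CPM. In each of these 5 genes Yoda1 1 was the high library, and Yoda1 2 lay near or below control 2.

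**Figure D1:**
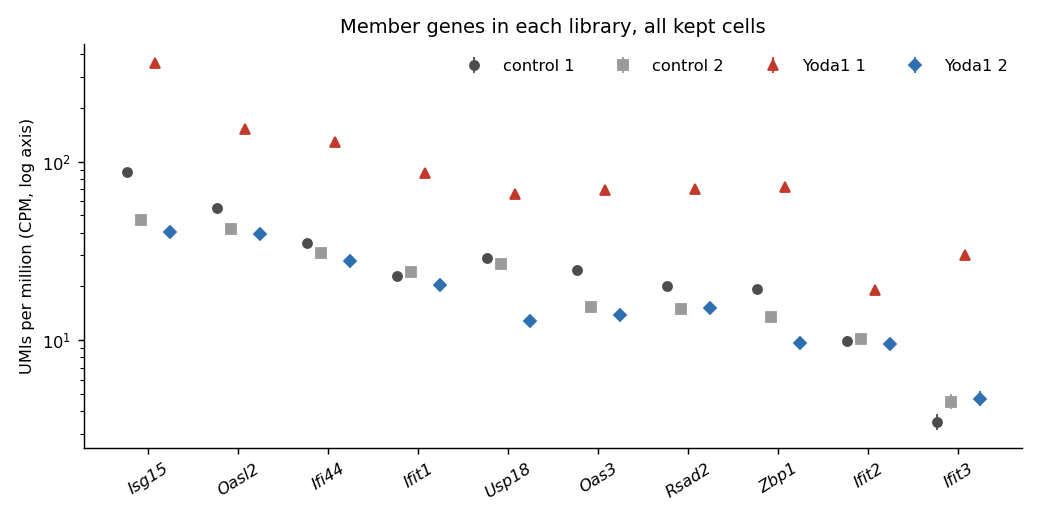
Level of each member in each library, in CPM on a log axis; each point is 1 library and bars are exact 95% Poisson intervals. In every gene Yoda1 1 lies above the other 3 libraries, from 19.1 CPM for Ifit2 to 357 CPM for Isg15, while Yoda1 2 lies at or below the controls in most.

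Because the treated libraries lay on either side of the controls, a comparison of the 2 groups rested on 1 library. edgeR's quasi-likelihood test on the summed counts called 0 of 18182 genes (0% higher, 0% lower); 309 had an unadjusted p under 0.05. limma-voom called 0, and 4 genes passed in DESeq2. The fitted log2 fold changes of the members, Yoda1 over control, ran from 0.50 ± 0.38 (SE) for Ifit2 and 0.53 ± 0.69 for Usp18 to 1.59 ± 0.91 for Isg15 and 2.16 ± 0.80 for Ifit3. Their median was 1.24, beside 0.01 over all genes. By limma-voom they were smaller, from 0.015 for Usp18 and 0.38 for Ifit2 to 0.86 for Rsad2 and 1.55 for Ifit3, with a median of 0.72. Without Yoda1 1, 9 of the 10 turned negative, for example Isg15 to -0.92, Zbp1 to -0.95 and Usp18 to -1.30, and Ifit3 was at 0.07. Without Yoda1 2 they ran from 0.99 for Ifit2 to 2.98 for Ifit3.

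In Yoda1 1 the members were found in most cells, and in the other libraries in a smaller share. To compare cells of unequal depth, each was thinned at random to 3000 UMIs, which left out 226, 252, 154 and 446 shallower cells. At that depth 53.1%, 45.2%, 87.9% and 34.4% of cells had a UMI of at least 1 member, against 84.5%, 77.6%, 98.7% and 59.1% before thinning. At least 2 members were found in 22.1% (95% exact binomial interval 21.1 to 23.0), 18.2% (17.4 to 19.1), 66.1% (65.1 to 67.1) and 11.5% (10.8 to 12.1) of cells. At least 5 were found in 1.23%, 1.22%, 16.9% and 0.806%. The intervals cover counting error only. No class of cells in this sort is known to lack these genes, so the share that free RNA alone would give could not be set.

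By gene, thinned cells with a UMI of Isg15 made up 20.9%, 13.5%, 60.6% and 9.69%, and those with Ifit3 1.33%, 2.06%, 10.4% and 1.08%. For Zbp1 the shares were 5.88%, 4.85%, 22.2% and 2.87%, and for Usp18 9.43%, 8.88%, 19.6% and 3.83%. The order of the libraries in these shares was that of the summed level, apart from Ifit3 and Ifit1 (6.75%, 7.90%, 24.7% and 5.15%), where the controls exchanged places. Before thinning, 48.1%, 32.4%, 87.4% and 20.4% of cells had a UMI of Isg15.

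Member transcripts were spread unevenly over cells, most so in Yoda1 2. The mean number of member UMIs per thinned cell was 1.10, 0.922, 4.07 and 0.685. The 5% of cells with the most member UMIs held 29.3%, 33.0%, 20.1% and 43.6% of them, and the ratio of variance to mean was 2.97, 3.10, 4.16 and 5.23, where independent counts at a common rate would give about 1. A few cells in each library were very high, with up to 53, 45, 51 and 62 member UMIs out of 3000. Yoda1 2 thus had the lowest mean, the highest share in few cells and the highest single cell.

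**Figure D2:**
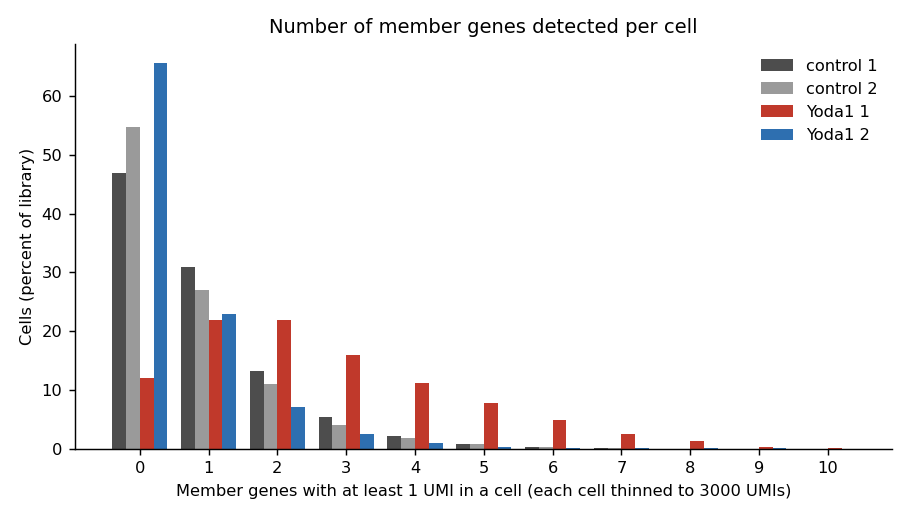
Share of cells (percent of the library) by the number of the 10 members with at least 1 UMI, after thinning each cell to 3000 UMIs; each bar is 1 library. The bars of Yoda1 1 are lowest at 0 members and highest from 2 members on, and those of Yoda1 2 are highest at 0, where 6106 of its 9310 cells lie.

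Members were detected together in the same cells. For each of the 45 pairs of members, the number of thinned cells with both was divided by the number expected if the members were detected independently within the library. The ratio exceeded 1 in 45, 44, 45 and 45 pairs, with a median of 1.68, 1.98, 1.44 and 2.62. It was not computed for pairs of other genes, so whether such ratios are particular to the members was not tested. Ifit1 and Ifit3 had the highest ratio in 3 libraries, at 5.29, 5.03, 2.23 and 9.04 times the expected number. In Yoda1 1 Ifit2 and Ifit3 had the highest ratio, 2.45. The ratio that fell below 1 was that of Ifit2 and Oas3 in control 2, 0.88. These ratios describe cells within single libraries, which share their source, and a mix of cell classes with unequal levels can also raise them. Within the granulocyte class described below the median ratio was 1.73, 2.13, 1.56 and 2.68 (over 36 pairs in Yoda1 2), and within the Flt3 class 1.51, 1.61, 1.16 and 2.62. The ratio exceeded 1 in 42, 41 and 45 of 45 pairs and 22 of 36 in the granulocyte class, and in 37, 45, 42 and 45 of 45 in the Flt3 class.

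Cells with several members also carried more of the other interferon-induced genes. In thinned cells with at least 3 members (655, 541, 3967 and 402 cells) and with none (3470, 4147, 1081 and 6106 cells), all 26 other type I effector genes with at least 50 UMIs were higher in the former in all 4 libraries, where 29.1% of 13775 genes were. A difference over 1 on the log2 scale in all 4 was seen in 9 of the 26 and in 0.225% of all genes. The 26 include Ifit3b, in which 51.24% of the 50-base stretches of Ifit3 occur, so its value is not separate from the members. Because the members were unevenly expressed over classes and cell cycle, these 2 sets of cells can differ in both, and the part of that in these values was not tested. Iigp1, an interferon-induced GTPase, was higher by 2.51, 2.74, 2.86 and 2.88 (log2 of CPM + 10), and Irf7, the transcription factor that amplifies the interferon response, by 1.84, 1.86, 1.44 and 2.44. Rtp4, also induced by interferon, was higher by 1.84, 2.12, 1.54 and 2.48. The sort marker Ly6a was higher by 2.00, 2.35, 1.87 and 1.68, from 99.1 to 427 CPM in control 1, while Kit was higher by 0.59, 0.57, 0.66 and 0.25. The proliferation marker Mki67 was lower, by -0.46, -1.35, -0.26 and -1.31. These are values across cells of single libraries, given without a test.

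The levels of the members were then compared across classes of progenitor, to see where in the LSK fraction these genes were expressed. Classes were gated on marker lists that hold no member: a thinned cell entered the class whose 6 markers it showed most of, with at least 3 detected (2 for the stem list) and more than for any other list. The gating rule was set after the data had been seen. Of 10 lists, 7 gave at least 50 cells in every library. They are called here the Hlf stem class (genes with the highest fold in it included Procr, Mecom and Hlf), the Flt3 lymphoid class (Il7r, Dntt), the dendritic class (H2-Eb1, Cd74), the granulocyte class (Elane and Cebpe, but also the eosinophil genes Prg2 and Prg3), the mast and basophil class (Prss34, Mcpt8), the megakaryocyte class (Pf4, Treml1) and the erythroid class (Rhd, Car1). Apart from Prss34, Prg2 and Prg3, the genes named were themselves gating markers, so their high fold followed from the gating. The B-lineage, T, NK and innate lymphoid, and monocyte classes were too small in at least 1 library, and 2892, 3389, 4608 and 5563 cells entered no class. No cells were removed as doublets.

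Among the 7 classes, the Hlf stem class had the highest summed CPM of the members in every library. The Flt3 lymphoid class had the second highest, and the megakaryocyte class the lowest. CPM is here a share of the UMIs of a class, and depth differed between classes. In control 1 the median was 5867.5 UMIs per Hlf stem cell and 18012 per erythroid cell. Member UMIs per unthinned cell were not compared between classes. In the Hlf stem class (116, 214, 309 and 1489 cells) the sum was 552, 535, 2304 and 260 CPM, and in the Flt3 lymphoid class (308, 791, 464 and 1333 cells) 507, 502, 1839 and 205 CPM. Between these neighbours the 95% counting intervals overlapped in both controls (504 to 604 and 481 to 535 CPM in control 1) and not in the Yoda1 libraries. The dendritic class stood at 364, 316, 1582 and 160 CPM, the erythroid class at 315, 148, 800 and 169 CPM and the granulocyte class at 260, 147, 802 and 79.5 CPM. These 3 changed order between libraries. The mast and basophil class was at 218, 174, 585 and 76.6 CPM and the megakaryocyte class at 179, 127, 557 and 66.1 CPM.

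The share of cells with at least 2 members showed the same range. It was 43.1%, 38.3%, 91.6% and 16.1% in the Hlf stem class, 37.3%, 34.6%, 87.3% and 13.2% in the Flt3 lymphoid class, and 18.8%, 10.8%, 55.1% and 4.35% in the granulocyte class. In the megakaryocyte class it was 8.52%, 7.06%, 41.8% and 0%; the last was 0 of 111 cells, which allows up to 3.27% by the exact 95% interval.

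**Figure D3:**
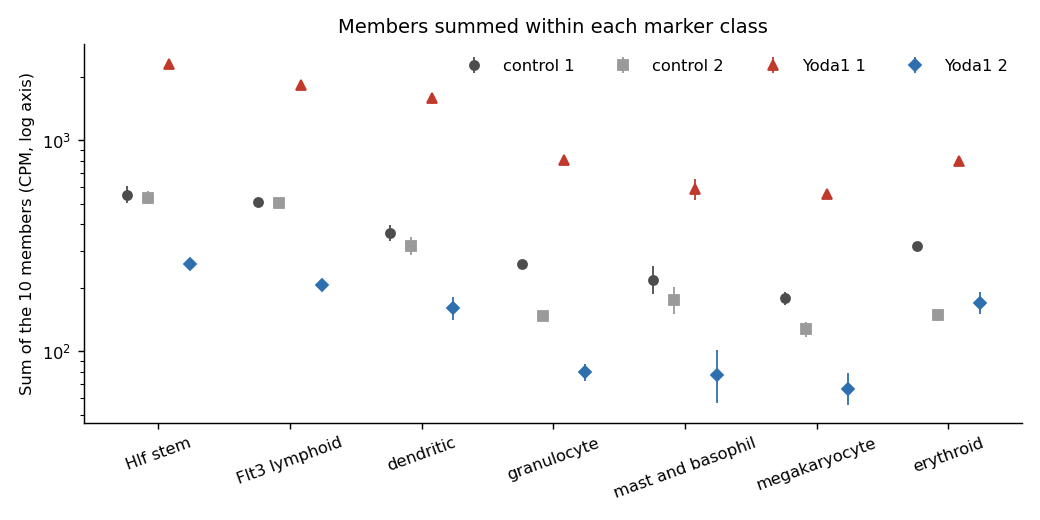
Summed level of the 10 members (CPM, log axis) in each of the 7 marker classes; each point is 1 library and bars are exact 95% Poisson intervals, which cover counting error only. In every class Yoda1 1 is the highest library, from 557 CPM in the megakaryocyte class to 2304 CPM in the Hlf stem class, and in all but the erythroid class Yoda1 2 is the lowest.

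The differences between libraries were present within each class. Yoda1 1 stood above both controls in 69 of the 70 pairs of member and class, against 27.5% of 91329 pairs of gene and class, the exception being Ifit2 in the megakaryocyte class. Its summed level was 2.98 times the control mean in the mast and basophil class and up to 4.66 times in the dendritic class. Yoda1 2 stood below both controls in 59 pairs (31.7% over all genes) and above both in 5 (32.6%), with a summed level of 0.39 to 0.73 times the control mean. Yoda1 2 held more cells of the Hlf stem and Flt3 lymphoid classes, where the members were high, and fewer of the granulocyte class (391, against 1923 and 2750 in the controls). With the 7 classes weighted equally, the summed level was 342, 279, 1210 and 145 CPM, so Yoda1 2 was lower relative to the controls than over all cells.

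Within the classes, single members kept much of this pattern. In the Hlf stem class Isg15 was at 105, 86.6, 587 and 47.9 CPM, Oasl2 at 134, 138, 389 and 59.5 CPM and Ifit3 at 10.5, 16.6, 122 and 5.83 CPM. In each of these 3 genes Yoda1 2 was lower there than either control, also in Ifit3, which over all cells was not. In the megakaryocyte class Isg15 was at 35.8, 21.8, 185 and 13.7 CPM and Zbp1 at 8.19, 7.42, 29.1 and 2.04 CPM.

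The contrast between classes lies within libraries, so it does not use the differences between libraries known when the members were chosen. It was therefore tested. The members and the gating rule were nevertheless set with earlier results of these data known. Whether those results bore on this contrast is not known, so its p-values cannot be read as an independent test. Counts were summed per library and class, and each class was compared with the mean of the other 6 by edgeR's quasi-likelihood test with library as a block, over 13047 genes. In the Hlf stem class 9 of 10 members were higher and none lower, where 31.2% of all genes were higher and 25.4% lower. The median log2 difference was 1.16 for the members and 0.07 for all genes. Ifit3 was higher by 2.62 ± 0.26 (SE), Oasl2 by 1.55 ± 0.10, Ifit1 by 1.53 ± 0.14, Ifi44 by 1.48 ± 0.11 and Rsad2 by 1.37 ± 0.14, all at an edgeR adjusted p of 2.28e-10 or less. Usp18 had a difference of 0.27 ± 0.12 that did not pass (edgeR adjusted p = 0.0566).

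In the Flt3 lymphoid class 8 of 10 members were higher and none lower (28.1% and 26.3% of all genes), with a median of 0.87. Ifit3 led again, at 2.47 ± 0.23, followed by Ifi44 at 1.58 ± 0.10, Oas3 at 1.09 ± 0.10 and Oasl2 at 1.09 ± 0.09. Usp18 was higher here (0.70 ± 0.09), while Zbp1 (0.09 ± 0.14) and Ifit2 (0.42 ± 0.19) did not pass.

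The dendritic class had 5 members higher and none lower (18.5% and 15% of all genes), with a median of 0.50. Zbp1 was higher by 1.26 ± 0.19 and Ifit3 by 1.37 ± 0.45, with Ifi44, Usp18 and Isg15 at 0.76, 0.53 and 0.48. For Zbp1 the dendritic class gave the highest of its 7 differences.

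The myeloid and megakaryocyte classes lay on the other side. In the granulocyte class 7 members were lower and none higher (26.1% and 27% of all genes), with a median of -0.37, led by Usp18 at -0.67 ± 0.09. In the mast and basophil class 7 were lower and none higher (11.2% and 12.7%), with a median of -0.89. In the megakaryocyte class 8 were lower and none higher (28.2% and 26.3%), with a median of -1.27; Ifit3 was at -1.82 ± 0.50, Ifi44 at -1.67 ± 0.15, Zbp1 at -1.61 ± 0.18 and Oas3 at -1.50 ± 0.14. Ifit2 (0.19 ± 0.21) and Usp18 (-0.20 ± 0.11) did not pass there.

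In the erythroid class the members split, with 2 higher and 5 lower (35.8% and 35.9% of all genes). Isg15 was higher by 0.63 ± 0.10 and Oas3 by 0.26 ± 0.11. Ifit3 was lower at -1.73 ± 0.48, Ifit2 at -1.26 ± 0.23, Oasl2 at -0.98 ± 0.11, Ifi44 at -0.60 ± 0.12 and Usp18 at -0.39 ± 0.11. The call of Oas3 was lost without control 1 (0.051), without control 2 (0.21), without Yoda1 2 (0.20) and with RLE size factors (0.17).

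**Figure D4:**
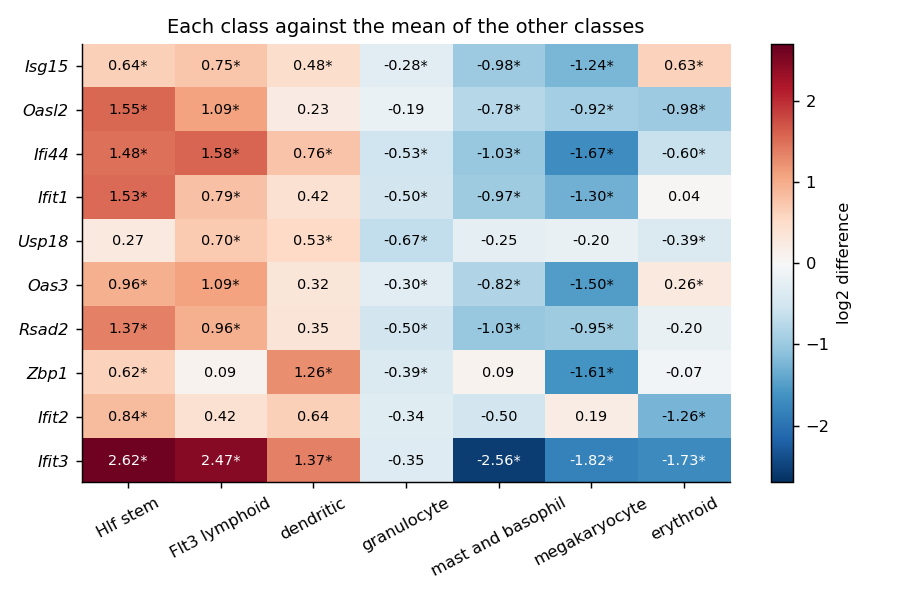
Log2 difference of each member between each marker class and the mean of the other 6 classes, with library as a block; an asterisk marks an edgeR adjusted p under 0.05. The Hlf stem and Flt3 lymphoid columns are positive throughout, up to 2.62 for Ifit3, and the megakaryocyte column is negative for all members but Ifit2.

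Over the 7 classes 51 member differences passed. All 51 kept their direction with each library left out, and 49 passed without control 1, 45 without control 2, 43 without Yoda1 1 and 49 without Yoda1 2. In the control libraries alone 39 of the 51 passed and all kept their direction. Among the calls lost in the controls alone, and also without Yoda1 1, were those of Ifit2 (0.28 and 0.37) and Zbp1 (0.21 and 0.36) in the Hlf stem class.

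The members were also lower in dividing cells. Cells with at least 3 of 8 cycling markers (2910, 2337, 3586 and 2348 cells) were compared with cells showing none (1983, 2975, 2350 and 4437 cells). The summed level of the members was 418, 345, 1505 and 256 CPM in non-cycling and 278, 161, 892 and 140 CPM in cycling cells. These too are shares of UMIs, and member UMIs per unthinned cell were not compared. Ifit3 was at 6.77, 10.1, 63.3 and 7.82 CPM in non-cycling and 2.57, 1.48, 16.3 and 2.72 CPM in cycling cells, and Isg15 at 110, 65.5, 441 and 49.8 against 83.6, 37.3, 333 and 32.1 CPM. Within each library the sum was lower in the cycling cells, while the cycling cells of Yoda1 1 still stood above the non-cycling cells of the other 3 libraries. The class differences above were not adjusted for cycling. In control 1, 17 of 116 Hlf stem cells and 1065 of 2750 granulocyte cells were cycling. The part of this in the class differences was not tested.

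With library as a block, 9 of 10 members were lower in cycling cells by edgeR's quasi-likelihood test and none higher, where 27.1% of 16472 genes were lower and 28.5% higher. The median log2 difference was -0.68 for the members and -0.02 for all genes. Ifit3 was at -1.76 ± 0.17, Ifit1 at -1.17 ± 0.09, Ifi44 at -1.14 ± 0.08, Rsad2 at -0.85 ± 0.08, Oasl2 at -0.69 ± 0.06 and Zbp1 at -0.66 ± 0.08. Usp18 (-0.47 ± 0.08), Isg15 (-0.42 ± 0.07) and Oas3 (-0.28 ± 0.06) differed less, and Ifit2 did not pass (-0.32 ± 0.17, edgeR adjusted p = 0.131). Compared within the 3 classes with at least 20 cells of each state in every library (Flt3 lymphoid, granulocyte and megakaryocyte), an alternative chosen after seeing the data, 8 of the 9 passed; Oas3 was at -0.17 and Ifit2 now passed at -0.33.

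**Figure D5:**
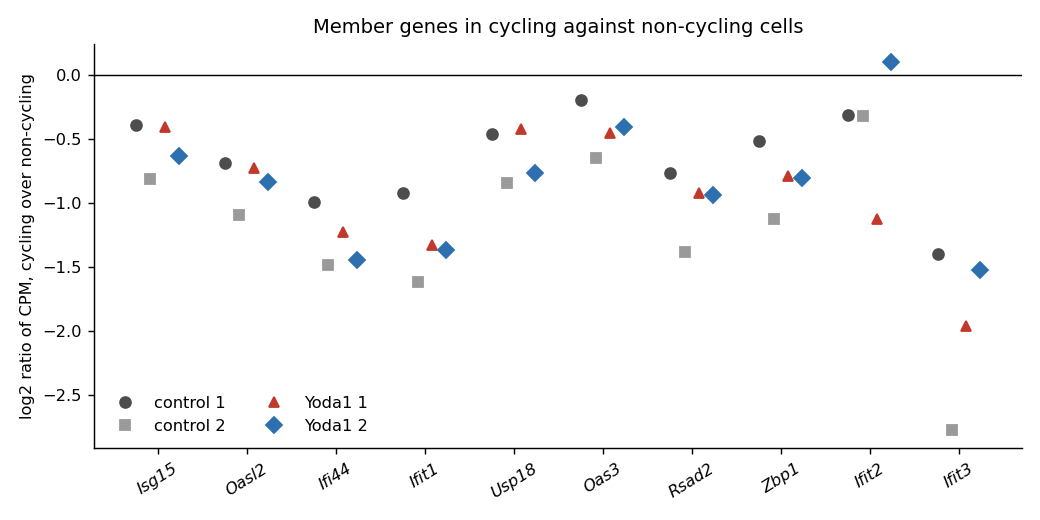
Log2 ratio of the level of each member in cycling over non-cycling cells; each point is 1 library and the line at 0 marks equal levels. All points lie below 0 except Ifit2 in Yoda1 2, where the levels were 9.60 and 8.96 CPM.

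Ligand, receptor and kinase genes of the pathway did not follow the members across the summed libraries. Of 19 interferon ligand genes, 17, among them all 13 Ifna genes and Ifnb1, had no UMI in any kept cell, which allows up to 0.0291, 0.0337, 0.0272 and 0.0331 CPM (3 counts per library). Ifng had 2, 18, 1 and 3 UMIs and Ifnk 0, 0, 1 and 2. The receptor genes Ifnar1 (19.3, 26.5, 22.6 and 31.7 CPM) and Ifnar2 (56.8, 73.1, 67.7 and 81.1 CPM) and the kinases Jak1 (107, 116, 118 and 149 CPM) and Tyk2 (19.4, 16.7, 15.6 and 16.01 CPM) showed no library standing apart as Yoda1 1 did for the members. Of the type II receptor genes, Ifngr1 was at 163, 185, 117 and 110 CPM and Ifngr2 at 18.5, 22.3, 21.3 and 17.5 CPM. Jak2, a kinase of that receptor, was at 26.6, 25.6, 24.99 and 25.9 CPM.

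Of the transcription factors of the pathway, Irf7 followed the members, at 78.4, 45.2, 178 and 23.7 CPM, while Stat2 (16.2, 15.9, 24.1 and 16.2 CPM) and Irf9 (54.5, 52.0, 65.7 and 46.7 CPM) differed less. Irf1, which also serves interferon gamma, had another order, at 27.8, 32.9, 38.3 and 51.7 CPM, highest in Yoda1 2. Irf3, which acts upstream of interferon production, lay between the controls in Yoda1 1 (52.2, 47.0, 47.7 and 49.4 CPM).

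Among 27 other type I effectors, none passed the test of Yoda1 against control. All 27 were above both controls in Yoda1 1, as were 18% of all genes. In Yoda1 2, 18 were below both (23.2% of genes), and 20 on TMM-scaled CPM (36.6% of genes). Ifitm3, a membrane protein that blocks viral entry, was at 1034, 883, 2212 and 847 CPM, and Bst2, which tethers virus particles to the cell, at 264, 229, 573 and 172 CPM. Ifi27l2a was at 209, 163, 383 and 52.8 CPM and Lgals3bp at 144, 85.1, 175 and 70.6 CPM. All 7 interferon-induced GTPases were above both controls in Yoda1 1 (18% of genes). They split in Yoda1 2, where 4 were above both (54.4% of genes) and 3 below both (23.2%). Gbp7 was at 59.2, 53.4, 97.4 and 61.7 CPM. Of 11 sensors and adaptors, 10 were tested, 6 were above both controls in Yoda1 1 (18% of genes) and 3 below both (39.5%). In Yoda1 2, 4 of the 10 were above both (54.4% of genes) and 3 below (23.2%).

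The other effectors were also compared in the Hlf stem class and in cycling cells. In the Hlf stem class 22 of 26 tested were higher and none lower by edgeR's quasi-likelihood test (31.2% and 25.4% of all genes), and 7 of 7 GTPases were higher. In cycling cells 19 of 26 other effectors were lower and none higher (27.1% and 28.5% of all genes), and of the GTPases 6 were lower and 1 higher. Bst2, Ifi35, Ifi27l2a and Trim25 were the effectors that did not pass in the Hlf stem class, with differences of -0.06, -0.10, -0.07 and 0.11. Socs1 and Socs3, which inhibit cytokine signalling, were both higher in the Hlf stem class, by 0.74 and 2.09, and both lower in cycling cells, by -0.91 and -1.56.

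The genes most like the members were ranked over the 28 sums of library and class, among the 9437 genes whose mean reached 5 CPM, by Pearson correlation of log2(CPM + 10) with the mean of the members. The 10 highest, leaving out predicted genes, were Xaf1 (0.97), Eif2ak2 (0.96), Parp9 (0.95), Igtp (0.95), Parp14 (0.95), Dhx58 (0.95), Rnf213 (0.93), Iigp1 (0.93), Oas2 (0.93) and Ddx60 (0.92). Of these, Eif2ak2 encodes the RNA-activated kinase PKR and Dhx58 an RNA sensor. The 28 points share 4 libraries, and in each of the 7 classes Yoda1 1 had the highest summed level. Xaf1, the highest, was at 40.5, 40.3, 91.0 and 33.0 CPM in the 4 libraries.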

How the data were processed

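The deposited tables hold unnormalized counts: whole numbers of UMIs for each feature in each barcode. Cell Ranger 7.1.0 wrote them, per the file headers, and Seurat 4.3.0, GRCm38 and mm10 appear in the submitters' processing notes. Since the labels mention 10x Genomics and also a microwell chip from a second manufacturer, the platform is uncertain. The annotation release and the treatment of intronic reads are not given in the sources used here.

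The cell filter required 500 genes, 1000 UMIs and no more than 10% mitochondrial UMIs (kept cells: 7620, 7822, 9122 and 9756). Samples were grouped by the treatment in their titles. The members and the gene lists were chosen with earlier results of these data known. The rule for named genes took all members, the pathway genes by role (receptors, kinases, their transcription factors, ligands with a UMI, and the 4 most abundant of other groups), the 10 genes most like the members, and class markers; pathway genes named beyond it were chosen after their values were seen. A gene that the rule also took is not reported here.

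Counts were summed per library, or per library and class or cycling state, and tested with edgeR 4.0.16 (filterByExpr, TMM, quasi-likelihood test, Benjamini-Hochberg adjustment over all genes, threshold 0.05) under R 4.3.3; the SE is the log2 difference divided by the square root of F. Thinning, sums and exact binomial (Clopper-Pearson) and Poisson intervals at 95% used Python 3.11.15 with numpy 2.4.6 and scipy 1.17.1. Each result was recomputed where it applied with limma-voom (limma 3.58.1), DESeq2 1.42.0, RLE size factors, no low-count filter, stricter cells (at least 1000 genes, at most 5% mitochondrial), every deposited barcode, no cells among the 5% with the most UMIs, 1 more marker per class, other thinning depths, a replicate block and each library left out (the lone library of a group was then assumed to vary like the other group).

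The tests were tried on simulated counts: of genes changed 2-fold, 0% were recovered for Yoda1 against control, 88.3% for the Hlf stem class and 81.9% for cycling, and of genes changed 4-fold 69%, 100% and 99.5%.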

Additional observations from a re-analysis of the deposited data

Results flagged for a closer look

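The barcodes removed by the cell filter (616, 887, 570 and 412) were used only in the alternative setting that took every deposited barcode. In those of Yoda1 1 the 10 members summed to 685 CPM (95% exact Poisson interval 626 to 748), above the 220 and 204 CPM in those of control 1 and control 2 and the 164 CPM in those of Yoda1 2. The order of the libraries was that of the kept cells, at 1052 against 307, 229 and 193 CPM.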

How the results depend on the processing

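With 2 libraries a group, 1 library could decide the comparison of Yoda1 with control. The genes called ran from 0 to 938 with 1 library left out (0 without control 1, 3 without control 2, 938 without Yoda1 1, 209 without Yoda1 2), and DESeq2 called 4. Without Yoda1 1 the log2 fold change reversed for 9 members; over the libraries left out it ran from -0.38 to 1.95 for Ifit1, -0.24 to 0.99 for Ifit2, 0.068 to 2.98 for Ifit3, -0.92 to 2.46 for Isg15, -0.39 to 2.06 for Rsad2, -0.48 to 1.71 for Oasl2, -0.72 to 1.85 for Oas3, -1.30 to 1.31 for Usp18, -0.95 to 2.19 for Zbp1 and -0.42 to 2.04 for Ifi44. The cause was not tested. A replicate block left 0 genes called by edgeR, but 1367 at an unadjusted p under 0.05 instead of 309. The labels do not say that a number marks a shared mouse or day, and over genes the difference between the controls correlated at 0.45 with that between the Yoda1 libraries, from only 2 pairs.

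The genes called with 1 library left out ran from 5756 to 7043 for the Hlf stem class, 5688 to 6527 for Flt3 lymphoid, 3141 to 3811 for dendritic, 5348 to 6355 for granulocyte, 2082 to 2550 for mast and basophil, 5839 to 6611 for megakaryocyte, 8289 to 8965 for erythroid and 7317 to 8613 for cycling. In the controls alone, with fewer libraries, 4100 genes were called for Hlf stem and 2078 for mast and basophil, beside 7380 and 3118. With 1 more marker 4556 were called for Flt3 lymphoid, beside 7095, and 4 of 7 classes fell below 50 cells and gave no value. Within classes 5071 were called for cycling, beside 9166. Small member differences changed sign in some settings. With 1 library left out they ran from -0.067 to 0.24 for Zbp1 in the Flt3 lymphoid, -0.043 to 0.46 for Zbp1 in the mast and basophil, -0.071 to 0.64 for Ifit2 in the megakaryocyte, -0.15 to 0.12 for Ifit1 in the erythroid and -0.20 to 0.0022 for Zbp1 in the erythroid class. With 1 more marker Zbp1 was at -0.15 in the Flt3 lymphoid class, with RLE Ifit1 at -0.048 in the erythroid class, and in the controls alone Rsad2 at -0.089 and Oasl2 at -0.028 in the dendritic and Ifit1 at -0.041 in the erythroid class. None of these had passed in the comparison of all 4 libraries.

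Depth set the share of cells with at least 2 members: 14.3%, 11.4%, 52.2% and 7.05% at 2000 UMIs, 34.5%, 26.8%, 79.5% and 17.7% at 5000, 62.8%, 49.7%, 95.1% and 30.0% without thinning, and 23.2% in control 1 without the deepest 5% of cells. The order of the libraries was the same at each depth.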
